A study of Homo sapiens with 18 samples.

Results

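The vector control and the shRNA labelled shAhR-1 were compared in Kelly, an established neuroblastoma cell line. The comparison takes the 3 libraries labelled pLKO-GFP and the 3 labelled shAhR-1 from the Kelly count table, which are 6 of the 18 libraries of the series, and covers all genes of that table. The series profiled Kelly and BE2C, both neuroblastoma lines, by RNA sequencing after knockdown of AHR, and its title places the question in the differentiation state of MYCN-amplified neuroblastoma. Each line had a vector control group and groups for the hairpins shAhR-1 and shAhR-2, with 3 libraries per group. The control group carries pLKO, a lentiviral vector, under the label genotype control, and the shAhR-1 group is labelled AhR knockdown. Both groups come from the same line, and neither the time after infection, the hairpin sequences nor whether a group is 1 infected population is given in the sources used here. No label ties the replicates to separate cultures. The p-values therefore rest on the spread among these libraries alone, and that spread may be technical.

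AHR encodes the aryl hydrocarbon receptor, a transcription factor that stays in the cytoplasm with HSP90 and its co-chaperones until a ligand binds. It then pairs with ARNT in the nucleus and binds DNA at sites with the core letters GCGTG, near genes such as CYP1A1, CYP1B1 and TIPARP. Neuroblastoma arises from the sympathetic lineage of the neural crest, whose cells make noradrenaline from tyrosine through the enzymes TH, DDC and DBH. In lines with an amplified MYCN gene, the MYCN protein drives growth, ribosome production and the cell cycle.

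AHR (chromosome 7, 16916359–17346152, plus strand, GRCh38, GENCODE release 29) was counted 4, 26 and 29 times in the control libraries and 18, 11 and 22 times in the libraries labelled shAhR-1. Scaled to library size (CPM), these counts were 0.0905, 0.64 and 0.771 and 0.533, 0.297 and 0.549. The groups overlapped, and control replicate 1 was the lowest of the 6 libraries. The pooled AHR rate in the libraries labelled shAhR-1 was 0.998 of the control rate (95% exact interval 0.672 to 1.48, counting error only). Low counts in these tables were mostly even, so mates of a read pair may have been counted separately, and intervals from the counts as deposited are then too narrow. With each AHR count halved and rounded up, the ratio was 1.00 (0.568 to 1.75). An exact two-sided permutation test of the CPM gave p = 0.8, where 3 libraries against 3 cannot go below 0.1. Without control replicate 1 the ratio was 0.681 (0.456 to 1.01). Of the exonic bases of AHR, 32.3% are shared with other annotated genes, and reads from these cannot be told apart. The shAhR-2 libraries held 0, 4 and 0 AHR counts, so the pooled rate in the libraries labelled shAhR-1 was 15.1 times that with shAhR-2 (5.55 to 57.6). A fall of AHR was thus not shown in the libraries whose label says knockdown, and every direction below describes how those libraries differed from the controls.

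The libraries held 38452042 to 45469353 counts in the controls and 32799682 to 39260506 in the libraries labelled shAhR-1, and no pair of replicates agreed within sampling noise. Mitochondrial transcripts took 15.2% ± 0.616 of counts in the controls (SD, n = 3) and 17.5% ± 0.139 in the libraries labelled shAhR-1. With mitochondrial genes left out, 4680 genes were called higher and 4919 lower. The neuroblastoma markers MYCN, TH and DBH were present in every library. Of 12 leukocyte markers, 5 had no count in any of the 6 libraries, among them CD3E, CD68 and MS4A1. The others had some counts, and the list summed to 0.468 to 0.792 CPM in the controls and 0.699 to 0.829 in the libraries labelled shAhR-1. Because bulk RNA was measured, fewer cells of a kind and less RNA per cell cannot be told apart.

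Of 39368 genes in the table, 15871 passed the filter on low counts and were tested. Of these, 9606 were called at an adjusted p below 0.05 (60.5%), 4691 higher (29.6%) and 4915 lower (31.0%) in the libraries labelled shAhR-1. Calls in which the groups did not overlap numbered 4434 higher (27.9%) and 4677 lower (29.5%), 57.4% of the genes tested. The median log2 fold change over all genes tested was 0.00, and the median size among called genes was 0.44. Calls of at least 1.5-fold numbered 1586 higher (9.99%) and 1824 lower (11.5%). At 2-fold or more these were 734 (4.62%) and 797 (5.02%), and at 4-fold or more 154 (0.97%) and 150 (0.945%). Values given below with ± are log2 fold changes against the vector control with their SE, unless a level is named, and called means an adjusted p below 0.05. Gene-list counts are to be read against the shares of 29.6% and 31.0%.

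**Figure D1:**
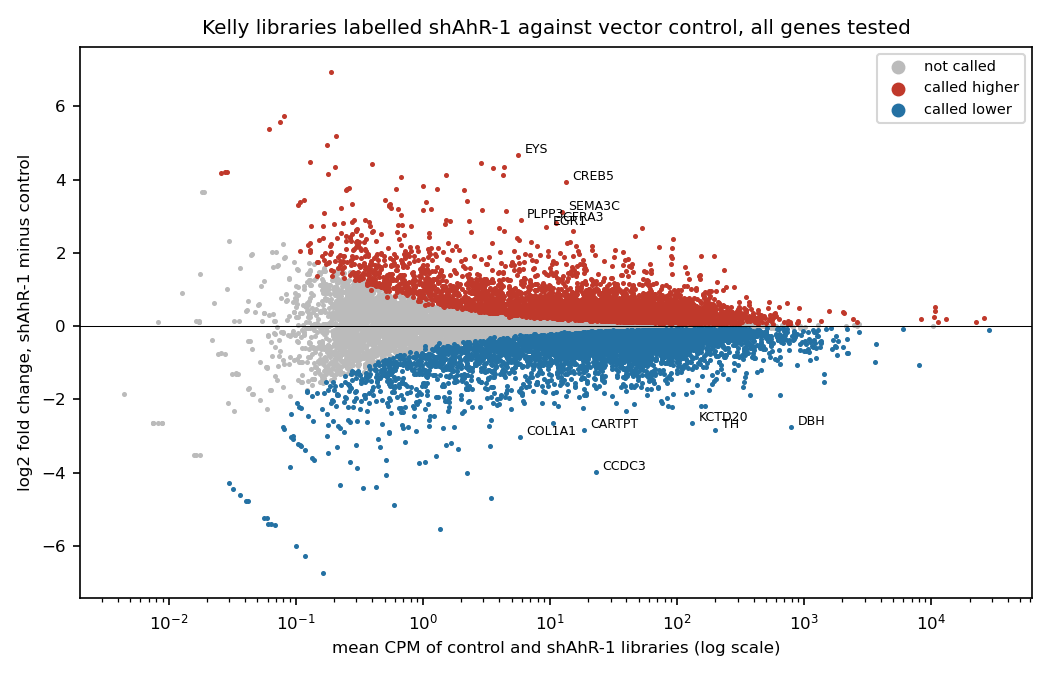
Log2 fold change of each of the 15871 genes tested (y axis, libraries labelled shAhR-1 minus vector control) against its mean CPM over the 6 libraries (x axis, log scale), with called genes in red (4691 higher) and blue (4915 lower). Calls lie on both sides of 0 at every level, and the labelled genes are the first 6 of the largest increases and decreases named in the text.

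Genes of the receptor's own complex came first. ARNT, the dimerisation partner, stood at 107, 101 and 108 CPM in the controls and 70.1, 75.5 and 72.3 in the libraries labelled shAhR-1 (−0.54 ± 0.038, adjusted p = 1.27e-17). All 3 libraries labelled shAhR-1 lay below the controls. ARNT2, its neuronal homologue, rose by 0.39 ± 0.041 on the log2 scale. The chaperone HSP90AA1 (−0.45 ± 0.026) and the co-chaperone PTGES3 (−0.61 ± 0.027) fell, and NCOA1, a coactivator, rose (0.91 ± 0.040). Of the 12 tested members of this list, 3 rose, 6 fell and 3 were not called, with a median of −0.18.

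The receptor's textbook targets were called higher in 25.0% and lower in 37.5% of tested members, near the 29.6% and 31.0% over all genes. Of 12 genes listed, 8 passed the filter on low counts, and of these 2 rose, 3 fell and 3 were not called (median 0.04). CYP1B1, a cytochrome P450 gene, was at 3.6, 4.01 and 3.59 CPM in the controls and 11, 9.17 and 12.7 in the libraries labelled shAhR-1, every one of which lay above the controls (1.55 ± 0.13, adjusted p = 1.31e-14). With shAhR-2, measured against the same controls, its values were 1.12, 0.901 and 1.35 CPM. NQO1, a quinone reductase, went from 9.79, 11.4 and 10.4 to 3.26, 4.41 and 4.27 CPM without overlap (−1.4 ± 0.13, adjusted p = 6.44e-14). TIPARP, an ADP-ribosyltransferase that the receptor induces, went from 21.9, 22.6 and 24.3 to 17.7, 18.5 and 16.8 CPM (−0.38 ± 0.069, adjusted p = 4.32e-06). The groups of TIPARP did not overlap either. NFE2L2, an antioxidant regulator, rose (0.34 ± 0.044; 20.9% of its exonic bases are shared), and the amino acid transporter SLC7A5 fell (−0.28 ± 0.031). CYP1A1 held only 22, 8 and 10 counts in the controls and 0, 18 and 14 in the libraries labelled shAhR-1, and AHRR 22, 10 and 11 and 23, 15 and 14, with overlapping groups and no call for either.

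The promoter of TIPARP is shown because TIPARP is a textbook target that was called here and its promoter window holds the receptor's core letters. The 250 bases before its first annotated start (RefSeq, GRCh38.p14, chr3:156674340-156674589, plus strand) are printed 5′ to 3′ with GCGTG or its reverse complement CACGC in capitals.
TIPARP: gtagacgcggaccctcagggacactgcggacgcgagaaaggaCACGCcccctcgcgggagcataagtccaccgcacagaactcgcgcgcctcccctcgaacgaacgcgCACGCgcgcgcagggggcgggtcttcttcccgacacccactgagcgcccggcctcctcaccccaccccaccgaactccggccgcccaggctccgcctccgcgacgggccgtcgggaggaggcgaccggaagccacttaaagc
The letters CACGC begin 208 and 142 bases before the start. The windows of the 2 other TIPARP starts in the table do not hold GCGTG on either strand, and neither does that of NQO1. GCGTG was searched on both strands, and 32.2% of 35116 RefSeq promoter windows of this length hold it. Counted per gene and not per window, 44.7% of the 11835 tested genes with a promoter window held it. Shares of windows and shares of genes have different bases. By call, the share of genes was 44.7% for those called higher, 45.9% for those called lower and 43.5% for those not called.

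MYCN (chromosome 2, 15940564–15947007, plus strand) was abundant and stood at 4946, 4564 and 4937 CPM in the controls. In the libraries labelled shAhR-1 it was 2414, 2459 and 2398 CPM, with every library below the controls (−0.99 ± 0.026, adjusted p = 1.88e-35). The MYC target and ribosome biogenesis list moved down in most members. Of 33 tested, 24 fell, 4 rose and 5 were not called (median −0.27). The transferrin receptor TFRC (−0.81 ± 0.027), lactate dehydrogenase LDHA (−0.80 ± 0.029) and the ribosome assembly factor RRP12 (−0.59 ± 0.037) fell furthest among the named members. CAD, which starts pyrimidine synthesis, rose (0.29 ± 0.029), as did the RNA polymerase subunit POLR1C (0.38 ± 0.050).

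**Figure D2:**
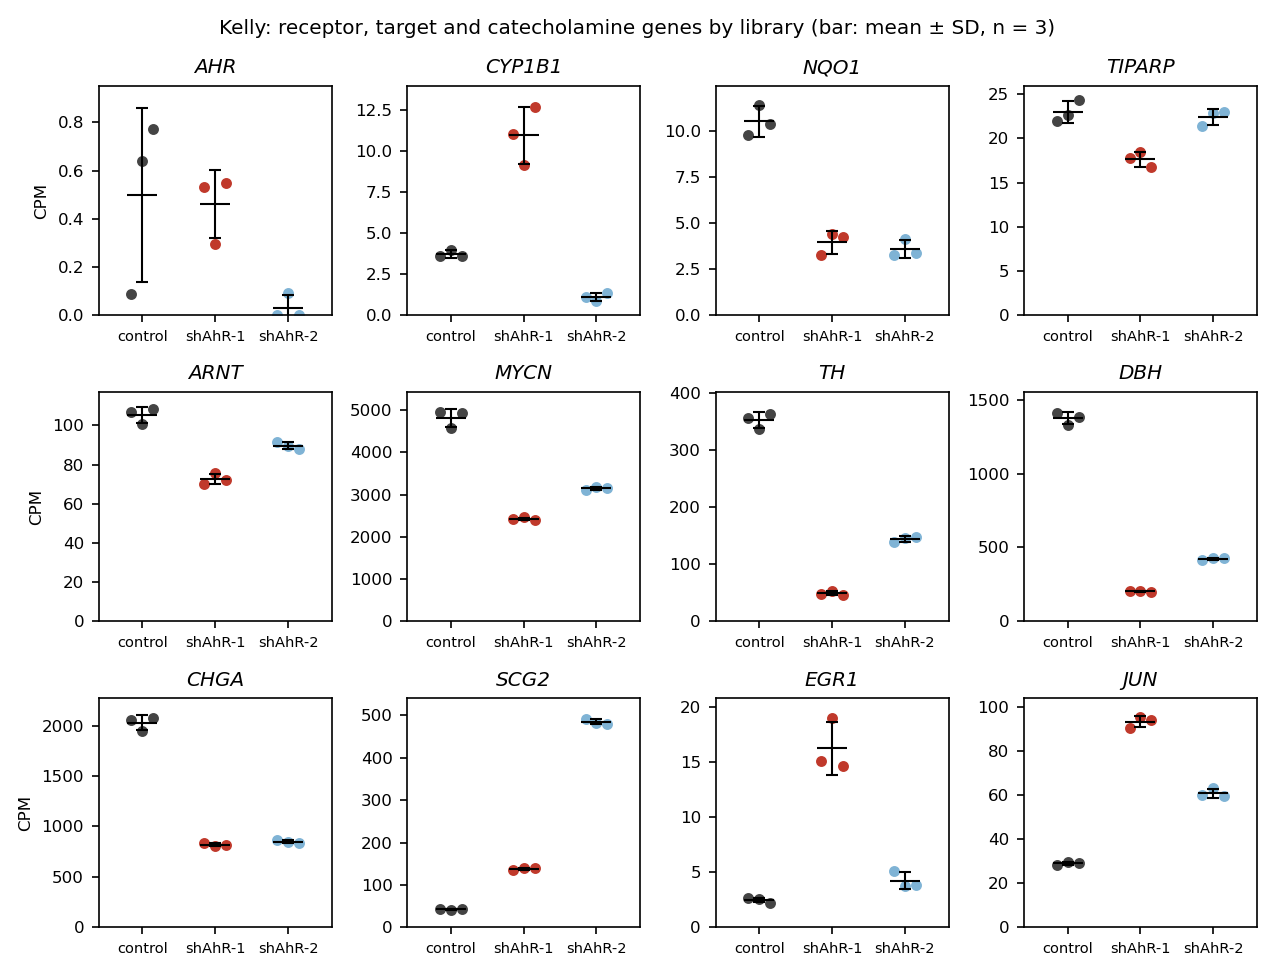
CPM of 12 genes in each of the 9 Kelly libraries (points; black bars, mean ± SD, n = 3; y axes start at 0). In the libraries labelled shAhR-1, AHR overlaps the controls, CYP1B1, SCG2, EGR1 and JUN lie above all controls, and NQO1, TIPARP, ARNT, MYCN, TH, DBH and CHGA lie below them.

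Genes of catecholamine synthesis fell in the libraries labelled shAhR-1. TH (chromosome 11, 2163929–2171877, minus strand), the rate-limiting enzyme, went from 356, 336 and 364 CPM to 48.4, 53.2 and 45.7 (−2.84 ± 0.039, adjusted p = 1.68e-47). DBH (chromosome 9, 133635348–133659344, plus strand), which turns dopamine into noradrenaline, went from 1411, 1329.8 and 1385 CPM to 207, 205 and 196 (−2.76 ± 0.029, adjusted p = 1.43e-52). For both genes the highest library labelled shAhR-1 was far below the lowest control. DDC, the decarboxylase between them, fell by a smaller amount, from 502, 493 and 499.5 CPM to 178, 173 and 173 (−1.51 ± 0.028). CHGA, the granin that packs secretory granules, went from 2059, 1941 and 2077 to 834, 809.6 and 819.6 CPM (−1.3 ± 0.027). Of the 21 tested genes of synthesis and storage, 14 fell, 5 rose and 2 were not called (median −0.52). The higher calls were 3 without control replicate 2, and also without shAhR-1 replicate 2 or 3. The named risers were granule proteins. SCG2, a granin cleaved to secretoneurin, rose from 43.6, 40.8 and 43.4 CPM to 135, 140.0 and 139 (1.69 ± 0.035, adjusted p = 3.79e-40), VGF, a neurotrophin-induced granule protein, from 14.7, 11.8 and 12.8 to 23.6, 24.5 and 25.8 (0.91 ± 0.074), and CHGB by 0.41 ± 0.029. The summed CPM of the list was 5808 to 6072 in the controls and 2600.0 to 2616 in the libraries labelled shAhR-1. CARTPT, a neuropeptide gene, also fell, from 31.4, 34.6 and 31 to 4.71, 4.49 and 4.32 CPM (−2.84 ± 0.077).

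VGF, a member that rose, is shown because its promoter holds a full cAMP response element, the site of CREB-family factors. The promoter source held no window for TH, so VGF and TH could not be compared for this element. The window of DBH, a member that fell, does not hold it. The 250 bases before the VGF start (RefSeq, GRCh38.p14, chr7:101165570-101165819, minus strand) have the letters TGACGTCA in capitals.
VGF: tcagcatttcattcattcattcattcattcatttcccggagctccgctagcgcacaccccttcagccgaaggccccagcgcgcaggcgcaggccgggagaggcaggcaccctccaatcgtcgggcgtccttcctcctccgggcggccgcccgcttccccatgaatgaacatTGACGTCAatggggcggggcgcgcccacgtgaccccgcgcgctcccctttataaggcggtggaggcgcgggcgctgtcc
The element begins 79 bases before the start. Searched on both strands, TGACGTCA is in 1.65% of RefSeq promoter windows of this length. Counted per gene and not per window, it was present for 2.83% of tested genes with a window. By call, these were 2.93% of genes called higher, 3.09% of genes called lower and 2.51% of genes not called.

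Transcription factors of the adrenergic state divided. Of 23 tested, 10 rose, 6 fell and 7 were not called (median 0.02). The co-factor LMO3 fell from 16.9, 19.5 and 20.4 CPM to 8.12, 7.95 and 9.16 (−1.17 ± 0.085), and PHOX2A, a regulator of noradrenergic neurons, from 261, 235 and 239 to 153, 155 and 152 (−0.68 ± 0.033). ISL1, a LIM homeodomain factor, rose from 106, 109 and 109 CPM to 173, 185 and 183 (0.74 ± 0.033), with DACH1 (0.70 ± 0.065) and ZNF536 (0.76 ± 0.068). Of 29 genes in the mesenchymal state list, 20 were tested and all of these were called, 11 higher and 9 lower (median 0.38). These counts held with RLE scaling and the replicate block. They were 10 and 8 with DESeq2, and 10 and 7 without shAhR-1 replicate 2. SNAI2, a neural crest repressor, went from 0.317, 0.394 and 0.425 CPM to 1.9, 2.92 and 3.05 (2.79 ± 0.34) and the matricellular gene CCN1 from 0.724, 1.08 and 0.691 to 1.96, 1.76 and 2.22, both at low levels. NOTCH3 (−1.88 ± 0.080), YAP1 (−1.51 ± 0.25) and the intermediate filament gene VIM (−1.44 ± 0.069; 24.4% of its exonic bases are shared) fell.

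Neuronal differentiation genes were called in equal number in each direction, 14 higher and 14 lower of 37 tested (median −0.01). The microtubule-associated genes STMN4 (11.6, 12.2 and 13.6 CPM against 51.8, 54.5 and 50.1, 2.07 ± 0.063) and DCX (71.6, 71.1 and 74.6 against 157, 149 and 161, 1.11 ± 0.036) rose without overlap. So did GFRA3, a receptor for artemin (2.82 ± 0.13). GFRA2, the neurturin receptor (−1.11 ± 0.044), and MAP1B (−0.69 ± 0.027) fell. In the retinoic acid list, which holds genes of a differentiation signal, 8 of 15 tested fell, 3 rose (1 with a filter at a mean CPM of 1) and 4 were not called (median −0.36). CRABP2, which carries retinoic acid to its receptors (−1.52 ± 0.077), the receptor gene RARG (−1.22 ± 0.080) and the retinol transporter STRA6 (−0.94 ± 0.047) were among the fallers, and RXRA rose (0.38 ± 0.040).

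The largest increases outside these lists were found at low to moderate levels. EYS, known from photoreceptors, was at 0.294, 0.689 and 0.292 CPM in the controls and 11.5, 10.8 and 10.1 in the libraries labelled shAhR-1 (4.66 ± 0.21, adjusted p = 4.93e-25). CREB5, a CREB-family factor, went from 1.63, 1.5 and 1.81 to 25.5, 25.4 and 24.7 CPM (3.94 ± 0.10, adjusted p = 3.17e-35). These groups were far apart, and no control reached 2 CPM for either gene. SERTM2 rose by 2.68 ± 0.056, SIPA1L2 by 2.38 ± 0.045, PTCHD4 by 2.6 ± 0.11, the secreted NELL1 by 2.45 ± 0.056, the lipid phosphatase PLPP3 by 2.91 ± 0.16, PNMA5 by 2.4 ± 0.14 and the tyrosine phosphatase PTPRR by 2.34 ± 0.15.

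Among the largest decreases, several genes fell in both Kelly and BE2C with shAhR-1, whose libraries are separate. CCDC3 fell in Kelly from 45.8, 40.4 and 43.5 CPM to 2.22, 2.6 and 3.34 (−3.98 ± 0.090, adjusted p = 3.03e-38) and had a log2 change of −3.53 ± 0.24 in BE2C. KCTD20 went from 226, 234 and 223 CPM to 36.6, 36.2 and 35.7 (−2.65 ± 0.035, adjusted p = 4.25e-48), and its BE2C value was −2.3 ± 0.044. Its Kelly shAhR-2 libraries held 210.4, 209.9 and 207 CPM. NRAS, a RAS oncogene, went from 272, 265 and 277 CPM to 59.7, 60.8 and 59.4 (−2.18 ± 0.033), with −2.36 ± 0.034 in BE2C and 207, 207 and 207 CPM in Kelly with shAhR-2. METTL7A (−2.32 ± 0.053 in Kelly, −2.0 ± 0.032 in BE2C), SH3BGRL (−2.23 ± 0.083 and −1.93 ± 0.086) and STC1, a secreted glycoprotein (−2.65 ± 0.12 and −2.66 ± 0.14), also fell in both lines. LCP1, an actin-bundling protein (−2.22 ± 0.037), and the receptor gene PRLHR (−2.17 ± 0.086) fell too. COL1A1, a chain of type I collagen, went from 10.8, 10.7 and 9.6 CPM to 1.3, 1.92 and 0.649 (−3.02 ± 0.17).

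**Figure D3:**
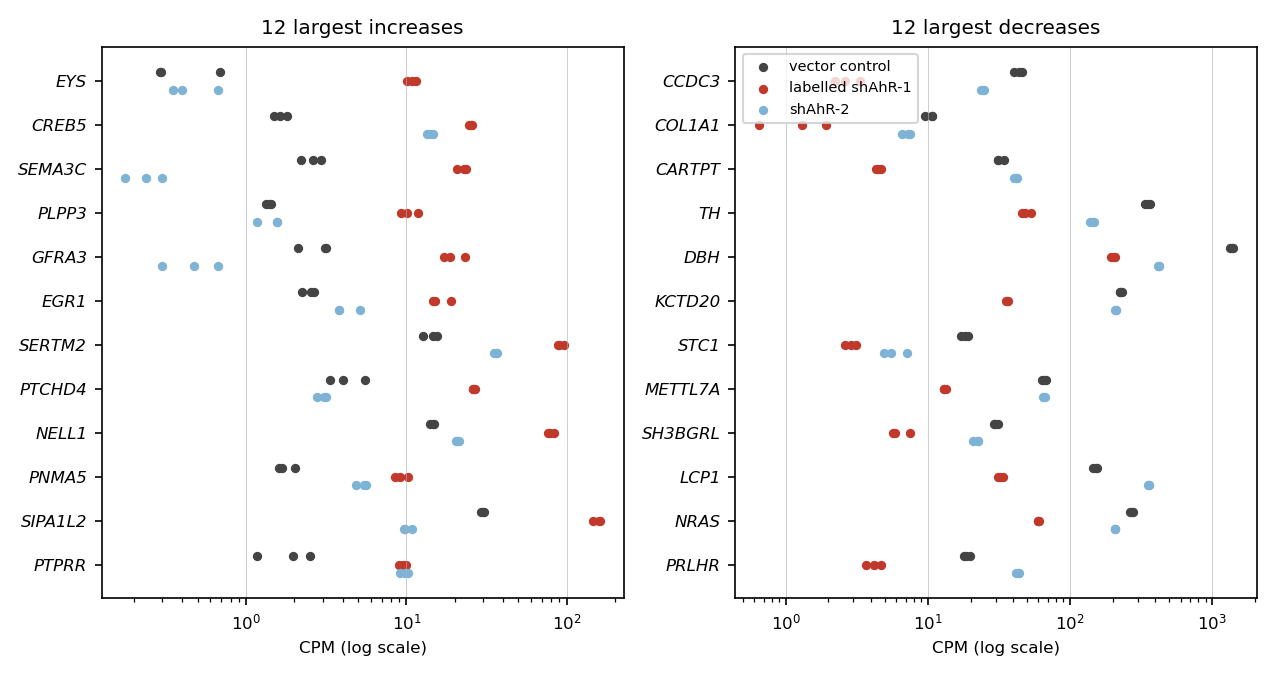
CPM (x axis, log scale) of the 12 largest increases and 12 largest decreases in each Kelly library, with controls in grey, libraries labelled shAhR-1 in red and shAhR-2 in blue. Red points do not overlap grey points for any of these genes, which the rule for naming them requires, while the blue points of KCTD20 and METTL7A lie close to the grey points.

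Cell cycle genes were called in both directions in the libraries labelled shAhR-1. Of 34 DNA replication genes, 10 rose, 12 fell and 12 were not called (median 0.01). The shares called higher and lower, 29.4% and 35.3%, were near the 29.6% and 31.0% over all genes. POLA1, the catalytic subunit of DNA polymerase alpha, went from 90.7, 92.2 and 85.7 CPM to 29.2, 32.1 and 32.8 (−1.51 ± 0.051), and GINS1 (−1.06 ± 0.052) and the clamp loader subunit RFC3 (−0.86 ± 0.039) fell too. UHRF1, which maintains DNA methylation (0.49 ± 0.034), the polymerase gene POLE (0.39 ± 0.032) and the helicase subunit MCM5 (0.34 ± 0.031) rose. Of 33 mitosis genes, 20 fell, 5 rose and 8 were not called (median −0.17). The checkpoint gene MAD2L1 went from 130.0, 138 and 131 CPM to 34.5, 33.2 and 34.7 (−1.96 ± 0.043, adjusted p = 6.74e-39) and the topoisomerase TOP2A from 617, 664 and 624 to 273, 286 and 279 (−1.19 ± 0.029). KIF23 (0.54 ± 0.034), CENPA (0.30 ± 0.058) and the cyclin CCNB2 (0.29 ± 0.041) rose.

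The p53 target list rose in 16 of 24 tested members, with 5 lower and 3 not called (median 0.37). ZMAT3, a p53-induced RNA-binding protein, went from 111, 127 and 120.1 CPM to 344, 335 and 360.4 (1.54 ± 0.037, adjusted p = 2.95e-37), and TP53INP1 (1.14 ± 0.052) and PHLDA3 (1.09 ± 0.064) rose without overlap. MDM2, the ubiquitin ligase that degrades p53 and is itself a target, went the other way, from 117, 116 and 115 CPM to 59.2, 58.5 and 64.3 (−0.93 ± 0.038), with RRM2B (−0.70 ± 0.061) and PMAIP1 (−0.55 ± 0.093). Of 19 apoptosis regulators, 7 rose, 4 fell and 8 were not called (median 0.09). The pro-apoptotic BCL2L11 (9.68, 10.4 and 7.95 CPM against 28.4, 28.1 and 26.5, 1.56 ± 0.080) and the anti-apoptotic BCL2 (22.5, 23.5 and 20.9 against 43.9, 48 and 46.5, 1.04 ± 0.049) both rose. BIRC2, an inhibitor of apoptosis (−1.15 ± 0.051), HRK (−0.94 ± 0.058) and the initiator caspase CASP9 (−0.93 ± 0.12) fell.

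Genes of protein production fell together. Of 41 cytosolic ribosomal protein genes, 38 fell, 1 rose and 2 were not called (median −0.42). RPS27A went from 618, 613 and 581 CPM to 245, 247 and 267 (−1.26 ± 0.030), RPS3 from 1643, 1521 and 1614 to 863, 843 and 914 (−0.87 ± 0.028) and RPL4 from 2357, 2227 and 2317 to 1313, 1315 and 1389 (−0.78 ± 0.026). The riser was RPS19 (0.10 ± 0.029), whose call was lost when shAhR-1 replicate 3 was left out. The list took 4.18% ± 0.0785 of counts in the controls and 3.22% ± 0.0711 in the libraries labelled shAhR-1 (SD, n = 3). Ribosomal protein genes have many processed pseudogenes, so single members are uncertain.

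Chaperone and stress genes were lower in most members. None of 17 tested cytosolic chaperones rose and 13 fell, with 4 not called (median −0.38), led by BAG3 (−1.35 ± 0.067), FKBP4 (−1.17 ± 0.030) and HSPB1 (−1.0 ± 0.042). Of 22 unfolded protein response genes, 17 fell, 1 rose and 4 were not called (median −0.28). HSPA5, the main chaperone of the endoplasmic reticulum, went from 621, 625 and 616 CPM to 324, 331 and 332 (−0.92 ± 0.027, adjusted p = 1.36e-33), DNAJC3 (−1.51 ± 0.067) and CREB3L2 (−1.22 ± 0.053) fell, and EDEM1 rose (0.25 ± 0.062). Of 23 amino acid stress genes, 13 fell, 7 rose and 3 were not called (median −0.17). The cystine transporter SLC7A11 (18, 17.5 and 16.3 CPM against 5.57, 4.73 and 4.74, −1.79 ± 0.11), SHMT2 of folate metabolism (−1.29 ± 0.040) and PHGDH, the first enzyme of serine synthesis (−0.81 ± 0.034), fell, while VLDLR (0.59 ± 0.076) rose.

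Metabolic lists pointed down as well. Of 29 glycolysis and hypoxia genes, 25 fell, 3 rose and 1 was not called (median −0.52). The lactate exporter SLC16A3 (10.8, 12.7 and 11.2 CPM against 3.73, 3.89 and 4.02, −1.57 ± 0.10), ALDOC (−1.49 ± 0.076) and NDRG1 (−1.39 ± 0.12) led the decreases, and MXI1 (0.19 ± 0.041), an antagonist of MYC, was among the increases. Of 23 cholesterol biosynthesis genes, 19 fell, 3 rose and 1 was not called (median −0.35). EBP (−0.99 ± 0.094), HMGCS1 (−0.93 ± 0.034) and FDFT1 (−0.83 ± 0.051), enzymes of the pathway, fell. The nuclear-encoded respiratory chain list had 20 of 32 members lower, 3 higher (5 with a filter at a mean CPM of 1) and 9 not called (median −0.15), with SDHC (−1.15 ± 0.054) and SDHD (−0.55 ± 0.076) lower and SDHA (0.47 ± 0.075), another subunit of the same complex, higher. In contrast, 11 of 13 mitochondrially encoded mRNAs rose, none fell and 2 were not called (median 0.20). MT-ND1 went from 9173, 8044 and 9002 CPM to 12348, 12719 and 12527 (0.52 ± 0.028).

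**Figure D4:**
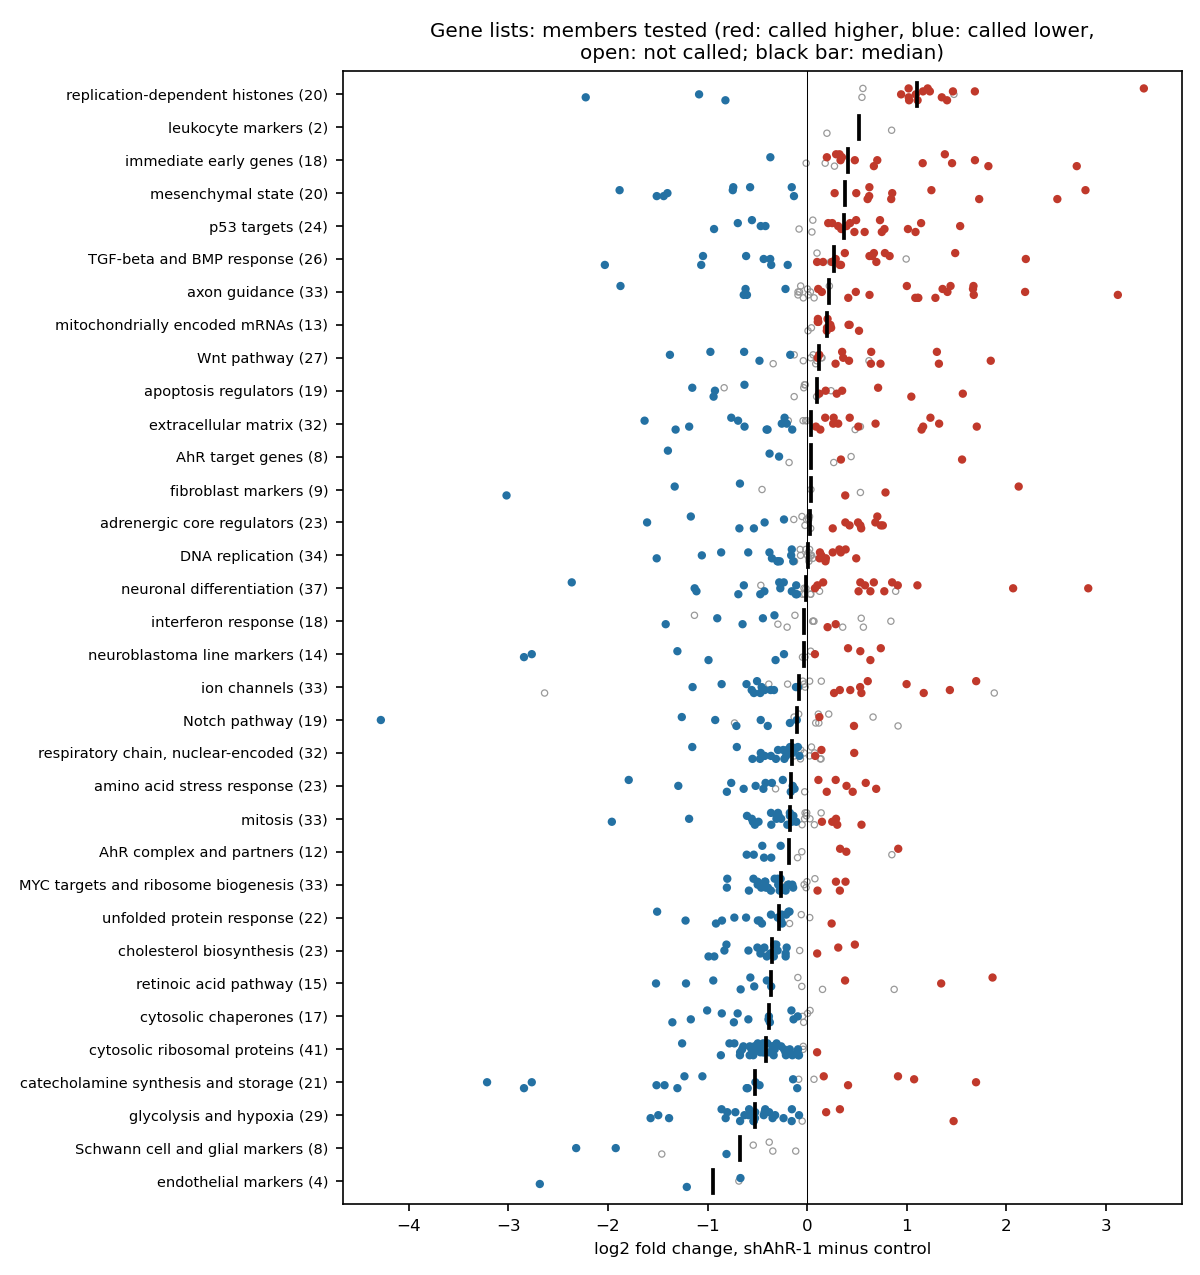
Log2 fold change of each tested member of the 34 gene lists (points; number tested in brackets), with black bars at the medians, from −0.95 for the endothelial markers to 1.10 for the histones. Red points are called higher, blue points called lower and open points not called.

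Replication-dependent histone genes, whose mRNAs mostly lack poly(A) tails, rose in 14 of 20 tested members, fell in 3 and were not called in 3 (median 1.1). H2AC6 went from 7.24, 9.01 and 6.01 CPM to 19.3, 20.5 and 21.7 (1.46 ± 0.083) and H2BC21 from 5.02, 4.58 and 5.13 to 15.2, 14.5 and 17.6 (1.68 ± 0.10). H3C10 (−0.82 ± 0.23) and H4C3 (−1.09 ± 0.31) fell. The summed CPM of the list was 41.4 to 46 in the controls and 89.9 to 104 in the libraries labelled shAhR-1. That is a small share, on average 0.00434% of counts in the controls and 0.00982% in the libraries labelled shAhR-1. Whether these reads came from transcripts with or without poly(A) tails was not tested. Histone genes are near-identical copies, so their reads may have been split between members.

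Immediate early genes, which answer growth factors and calcium within minutes, rose in 14 of 18 tested members, with 1 lower and 3 not called (median 0.41). EGR1, a zinc finger factor, was at 2.65, 2.56 and 2.23 CPM in the controls and 15, 19 and 14.7 in the libraries labelled shAhR-1 (2.71 ± 0.13, adjusted p = 2.92e-24). FOS went from 0.995, 0.886 and 0.957 to 3.79, 3.95 and 2.35 CPM (1.82 ± 0.22) and JUN, its partner in AP-1, from 28.4, 29.5 and 29.4 to 90.7, 95.5 and 94.1 (1.68 ± 0.044, adjusted p = 2.04e-35). No control library reached the lowest library labelled shAhR-1 for any of the 3 genes. JUNB was the faller (−0.37 ± 0.069).

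EGR1 is shown because it changed most in this list and its promoter is known for CArG boxes, the sites of serum response factor. The 250 bases before its start (RefSeq, GRCh38.p14, chr5:138465229-138465478, plus strand) have the CArG boxes found in capitals.
EGR1: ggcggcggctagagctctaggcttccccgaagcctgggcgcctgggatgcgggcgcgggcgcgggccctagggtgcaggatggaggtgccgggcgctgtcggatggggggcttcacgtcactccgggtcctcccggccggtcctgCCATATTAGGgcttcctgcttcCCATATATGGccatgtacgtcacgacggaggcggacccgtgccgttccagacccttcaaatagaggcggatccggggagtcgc
The boxes begin 105 and 83 bases before the start. A CArG box was in 1.16% of RefSeq promoter windows of this length. Counted per gene and not per window, it was present for 0.972% of tested genes with a window. By call, these were 1.09% of genes called higher, 0.842% of genes called lower and 0.986% of genes not called. The pattern equals its own reverse complement, so a single search covers both strands.

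Signalling lists were mixed. Of 26 TGF-beta and BMP genes, 15 rose, 8 fell and 3 were not called (median 0.27). The BMP-induced ID4 went from 2.8, 2.81 and 2.87 CPM to 12.6, 13.3 and 12.9 (2.19 ± 0.12), and the pseudoreceptor BAMBI rose by 0.83 ± 0.099. Receptors of the pathway moved in opposite directions, with TGFBR2 higher (1.49 ± 0.18) and TGFBR1 (−1.05 ± 0.058) and TGFBR3 (−2.03 ± 0.12) lower, and the ligand TGFB1 fell (−1.06 ± 0.056). Of 27 Wnt genes, 12 rose, 5 fell (3 without shAhR-1 replicate 3) and 10 were not called (median 0.12). The antagonist DKK1 went from 15.2, 14.7 and 15.7 CPM to 36.4, 39.7 and 37.6 (1.32 ± 0.070), the receptor FZD7 rose by 1.3 ± 0.12, and ZNRF3, which removes Wnt receptors, fell (−0.63 ± 0.059). Of 19 Notch genes, 8 fell, 2 rose and 9 were not called (median −0.10), with LFNG (−1.26 ± 0.066) and DLK1 (1507, 1389 and 1475 CPM against 783, 791 and 731, −0.92 ± 0.029) lower and the ligand JAG2 higher (0.47 ± 0.043). Of 18 interferon response genes, 2 rose (1 without shAhR-1 replicate 2 or 3), 5 fell and 11 were not called (median −0.03), with IFI6 (−1.42 ± 0.23) and STAT2 (−0.65 ± 0.067) lower.

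Axon guidance genes rose in 18 of 33 tested members, fell in 5 and were not called in 10 (median 0.22). The class 3 semaphorins SEMA3C (2.94, 2.19 and 2.61 CPM against 23.6, 20.8 and 23, 3.12 ± 0.12, adjusted p = 8.21e-29) and SEMA3D (8.03, 8.12 and 7.02 against 35.5, 32.5 and 37.7, 2.19 ± 0.074, adjusted p = 9.96e-31), secreted growth cone cues, rose without overlap. The ligand gene SLIT3 (−0.62 ± 0.029) and SLIT1 (−0.64 ± 0.061) fell. Of 32 extracellular matrix genes, 14 rose, 12 fell and 6 were not called (median 0.04). The laminin chain LAMA4 (1.7 ± 0.081) and AGRN (1.32 ± 0.082), which organises synapses at muscle, rose, and COL6A2 went from 75.1, 74.1 and 77.5 CPM to 35, 33 and 31.9 (−1.18 ± 0.044). Of 33 ion channel genes, 10 rose, 13 fell and 10 were not called (median −0.08). The shares higher and lower were 30.3% and 39.4%, beside 29.6% and 31.0% over all genes. The sodium channel genes SCN9A (1.7 ± 0.091) and SCN1A (1.17 ± 0.074) and the calcium channel subunit CACNA2D1 (1.43 ± 0.040) rose, and the nicotinic receptor subunits CHRNA7 (−1.15 ± 0.095) and CHRNB2 (−0.86 ± 0.044) fell.

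Markers of the line and of other cells were read beside these groups. Of 14 neuroblastoma line markers, 5 rose, 6 fell and 3 were not called (median −0.04), with STMN2 (0.63 ± 0.028) and ELAVL4 (0.53 ± 0.033) higher and TH, DBH and CHGA lower. Schwann cell and glial markers had 3 of 8 tested lower and none higher (median −0.68), and their summed CPM was 37 to 39.7 in the controls and 19.2 to 22.9 in the libraries labelled shAhR-1. Most of that sum was PMP22 (−0.81 ± 0.063), which is not restricted to glia, while the Schwann lineage factor SOX10 was at 0.158, 0.0984 and 0.106 CPM in the controls and 0.0592, 0.0541 and 0.0499 in the libraries labelled shAhR-1. Fibroblast markers split evenly, with 3 higher (1 with a filter at a mean CPM of 1), 3 lower and 3 not called of 9 tested (median 0.04; 120.0 to 127 CPM against 85.4 to 98.3). COL1A1 fell while PDGFRA rose (2.12 ± 0.33), and COL1A2, the partner chain, was at or under 0.0592 CPM in every library. Of 4 tested endothelial markers 3 fell (median −0.95; 19.8 to 23.3 CPM against 12.4 to 13.7), most of it EGFL7 (−0.67 ± 0.084), and neither of the 2 tested leukocyte markers was called (median 0.52; 0.468 to 0.792 CPM against 0.699 to 0.829). What these markers contribute to the other gene groups was not tested.

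Gene class and position were compared over the whole table. Protein-coding genes were called higher in 31.5% and lower in 34.0% of cases (median −0.01), antisense genes in 22.2% and 11.5% (median 0.16) and long noncoding genes in 20.2% and 13.7% (median 0.11). The strand setting of the counts is not given in the sources used here, so an antisense gene and its partner cannot be told apart where they overlap. Chromosome X had the lowest median of any chromosome (−0.11), with 23.1% of 553 genes higher and 36.7% lower, and the autosomes lay between −0.05 and 0.08.

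The hairpins shAhR-1 and shAhR-2 were compared directly in Kelly, where both groups share the same controls. Of 15871 genes, 12289 were called between them (77.4%), 6231 higher (39.3%) and 6058 lower (38.2%) with the label shAhR-1. All 34 DNA replication genes and all 33 mitosis genes were higher in the libraries labelled shAhR-1 than with shAhR-2, and all 41 ribosomal protein genes were lower. UHRF1 was at 177, 172 and 175 CPM in the libraries labelled shAhR-1 and 14.8, 13.2 and 14.5 with shAhR-2 (3.63 ± 0.043, adjusted p = 5.57e-51), around controls of 128, 124 and 122. RPS27A was at 245, 247 and 267 CPM and 893, 877 and 866 CPM (−1.8 ± 0.030). Among genes called against the control as well, SEMA3C (6.56 ± 0.17), GFRA3 (5.33 ± 0.18), the G protein subunit GNG11 (4.87 ± 0.11), the homeobox factor SHOX2 (4.56 ± 0.047) and the protocadherin PCDH18 (4.52 ± 0.11) had the largest positive differences. KIF21B (−4.51 ± 0.063), CRABP2 (−4.27 ± 0.065), SMTNL2 (−3.65 ± 0.075), PRPH (−3.62 ± 0.041; 56.2% of its exonic bases are shared) and LCP1 (−3.47 ± 0.037) had the largest negative ones. SHOX2 stood at 65.2, 61.7 and 67.8 CPM in the controls, 256, 245 and 234 in the libraries labelled shAhR-1 and 10.4, 10.1 and 10.8 with shAhR-2, so the 3 groups did not overlap. CRABP2 had the reverse order, at 14, 13.1 and 14.8, 5.04, 4.89 and 4.69 and 95.5, 93.2 and 93.8 CPM. TH and DBH were below the controls in both, at 139, 147 and 147 and 418, 426 and 426 CPM with shAhR-2, and differed between the hairpins by −1.56 ± 0.040 and −1.06 ± 0.028.

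The same hairpin label in BE2C gave a comparison with no library in common. BE2C, a further neuroblastoma line, was labelled with the same vector control and hairpin, and its libraries held 4, 4 and 6 AHR counts in the controls and 8, 0 and 0 with shAhR-1. BE2C had 8234 of 15732 genes called with shAhR-1 (52.3%), 3964 higher (25.2%) and 4270 lower (27.1%). Of the 14680 genes tested in both lines, 9211 were called in Kelly and 8005 in BE2C. Calls in the same direction numbered 5180, 2367 higher and 2813 lower, which is 56.2% of these Kelly calls and 64.7% of these BE2C calls. Opposite calls numbered 815. The log2 fold changes of the lines correlated at r = 0.46 over these genes, which are not independent replicates. The log2 fold change against control was called as different between the lines for 6115 of 17136 genes (35.7%). The value in Kelly was higher for 3121 genes (18.2% of those tested) and lower for 2994 (17.5%).

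**Figure D5:**
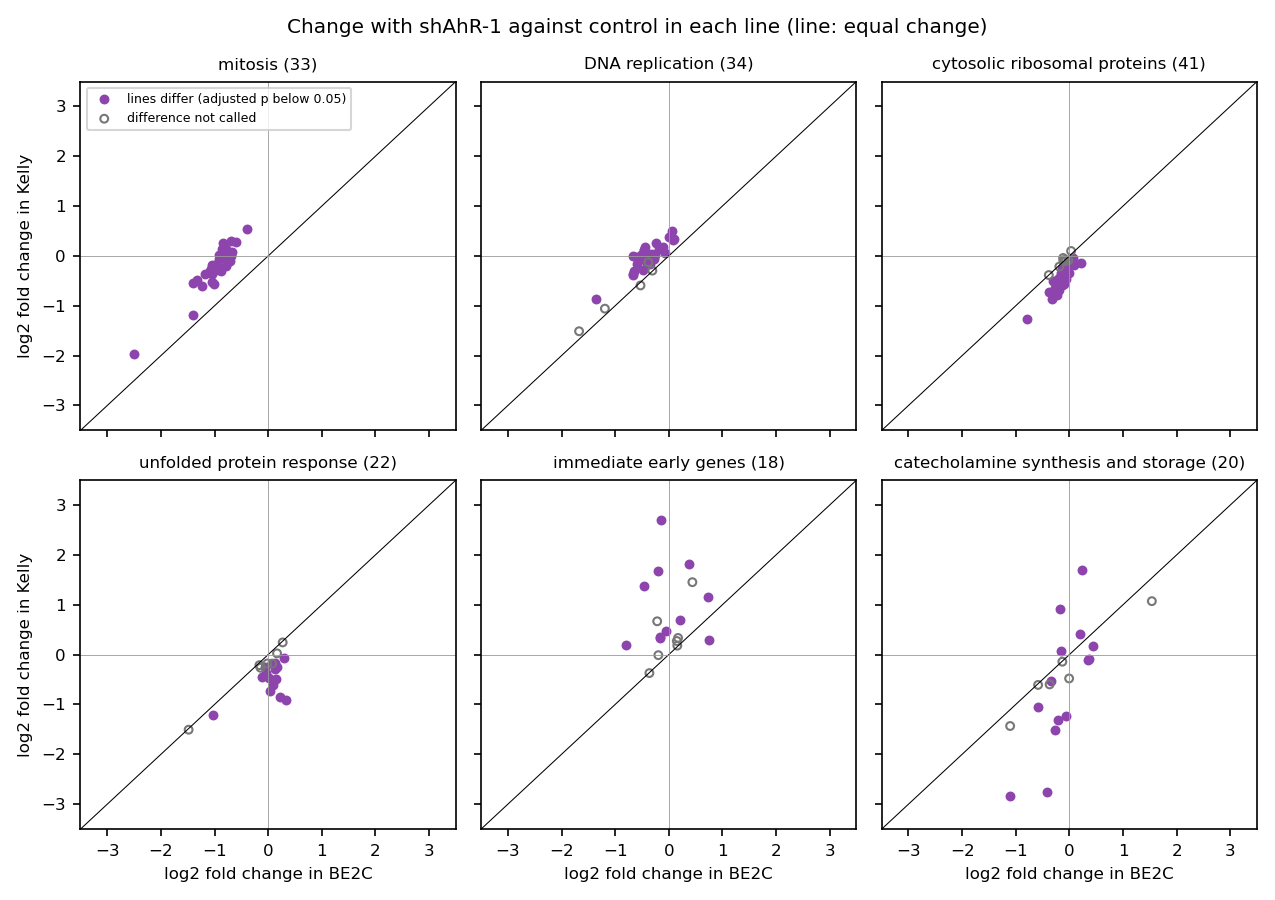
Log2 fold change with shAhR-1 in Kelly (y axis) against BE2C (x axis) for the members of 6 gene lists tested in both lines (number in brackets), with the diagonal marking equal change. All mitosis genes lie above the diagonal and are called as different between lines, while the ribosomal protein genes lie mostly below it.

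Mitosis genes fell in all 33 members in BE2C (median −0.91) and the line difference was called for all 33, each with the higher value in Kelly. KIF23 rose in Kelly and went from 142, 149 and 148 CPM to 111, 115 and 109 in BE2C (−0.39 ± 0.036), a difference of 0.93 ± 0.048, adjusted p = 7.15e-21. DNA replication genes showed the same order, with 28 of 34 lower in BE2C and 29 called as different, all with the higher value in Kelly. Ribosomal protein genes were lower in BE2C in 31 of 41 members, and 33 differed between lines, all with the lower value in Kelly. For the unfolded protein response, 9 of 22 rose and 5 fell in BE2C, and 15 differed between lines, all with the lower value in Kelly. HSPA5 rose in BE2C from 695, 677 and 672 CPM to 856, 878 and 830.2 (0.33 ± 0.029) while it fell in Kelly, a difference of −1.25 ± 0.039, adjusted p = 3.07e-29. Of 21 immediate early genes tested, 10 had a higher value in Kelly and 1 a lower one. EGR1 was at 15.2, 9.14 and 10.7 CPM in the BE2C controls and 9.63, 12.3 and 9.71 with shAhR-1 (−0.15 ± 0.12), a difference of 2.85 ± 0.20, adjusted p = 1.19e-16, and JUN differed by 1.88 ± 0.069.

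TH and DBH fell in both lines by unequal amounts. In BE2C, TH went from 111, 105 and 106 CPM to 45.3, 53 and 52.8 (−1.1 ± 0.051) and DBH from 538, 516 and 488 to 379, 385 and 388 (−0.42 ± 0.035). The Kelly change minus the BE2C change was −1.75 ± 0.069, adjusted p = 1.48e-25 for TH and −2.35 ± 0.047, adjusted p = 2.60e-37 for DBH. MYCN in BE2C went from 2229, 2170.2 and 2221 CPM to 1843, 1847 and 1837 (−0.26 ± 0.024). Its Kelly change minus its BE2C change was −0.74 ± 0.037, adjusted p = 1.45e-21. NQO1 differed by −1.41 ± 0.16, adjusted p = 8.78e-10, and its BE2C value was 0.00 ± 0.098. CCDC3 (−0.46 ± 0.34, adjusted p = 0.321), STC1 (0.01 ± 0.18, adjusted p = 1.000) and TIPARP (−0.06 ± 0.13, adjusted p = 0.777) were not called as different between lines.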

How the data were processed

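The authors deposited unnormalized counts per gene, with 39368 genes in each of 2 tables, 1 per line. Per the labels' protocols, total RNA (miRNeasy) went into ribosomal RNA-depleted libraries (RNA HyperPrep with RiboErase). Per the submitters' processing notes, CASAVA 1.8.2 and STAR 2.7.9a with GRCh38.p7 were used. Which tool, annotation and strand setting made the counts is not given in the sources used here. Such libraries can keep transcripts without poly(A) tails, and a large mitochondrial or ribosomal protein share changes the scale of all others.

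The 9 Kelly libraries were fitted in 1 model of 3 groups with edgeR 4.0.16 (filterByExpr, TMM, glmQLFit, glmQLFTest), and genes were called at a two-sided Benjamini-Hochberg adjusted p below 0.05 over all genes tested. The difference between lines came from 1 fit of all 18 libraries. Log2 values are given ± SE, which is the log2 value over the square root of F, and CPM uses TMM library sizes. Locations are from GENCODE release 29. The comparison, the 34 lists and the tests were chosen with earlier results of these data known. Named genes were AHR, ARNT, CYP1A1, CYP1B1, TIPARP, AHRR, NQO1 and MYCN always, the 12 largest risers and fallers called without overlap with mean CPM 5 or more, up to 3 each way per list with mean CPM 1 or more, and the 5 largest each way between hairpins and between lines. Some genes that the rule picks are not reported here by name and stay in the counts. Markers given with levels only were chosen after their values were seen. Alternatives for shAhR-1 against control were RLE scaling, 2 other filters, DESeq2 1.42.0, a replicate block, the 2 groups alone, halved counts (69.0% to 71.7% of counts from 1 to 20 were even in the 6 libraries), no mitochondrial genes, and leaving out each library. The hairpin and line comparisons were rerun with RLE scaling, the block and each library left out. The fit was tested on simulated data. R 4.3.3 and Python 3.11.15 were used.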

Additional observations from a re-analysis of the deposited data

Results flagged for a closer look

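By a test of the difference itself, the log2 change between libraries labelled shAhR-1 and controls differed between Kelly and BE2C for several genes. The test was taken from 1 fit of all 18 libraries. Of the 14680 genes tested in both lines, 815 were called in opposite directions, 425 of them higher in Kelly and lower in BE2C. The line difference was called for all 815. Opposite calls nearly fix that outcome in advance, so it adds no support to the calls. For 3 genes with counts in both groups of each line, the Kelly value minus the BE2C value was large. EYS differed by 4.21 ± 0.48, adjusted p = 5.37e-10 and held 16, 14 and 14 counts in the BE2C controls and 23, 16 and 21 with shAhR-1. CREB5 differed by 3.67 ± 0.13, adjusted p = 2.59e-27, with 12.4, 11.1 and 13.3 CPM in the BE2C controls and 13.8, 14.6 and 15.7 with shAhR-1. CARTPT differed by −4.01 ± 0.30, adjusted p = 2.11e-15, falling in Kelly and rising in BE2C (1.16 ± 0.30).

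The other 7 differences rest on BE2C libraries at or near 0 counts, so their fitted sizes depend on the prior count and are no bounds. SLITRK1 differed by 5.65 ± 1.27, adjusted p = 3.42e-04, with 6, 5 and 3 counts in the BE2C controls and 0, 0 and 0 with shAhR-1. In the same order, ADORA1 (4.63 ± 1.59, adjusted p = 0.0186) had 4, 2 and 0 and 0, 0 and 0 counts, and ERC2 (3.99 ± 1.53, adjusted p = 0.0367) had 0, 2 and 6 and 0, 0 and 0. The 4 genes with a negative difference had no count in the BE2C controls. PHLDB2 (−6.68 ± 1.28, adjusted p = 3.62e-05) had 0, 0 and 0 counts in the controls and 6, 2 and 4 with shAhR-1, and MEF2C (−4.13 ± 1.51, adjusted p = 0.0285) had 0, 0 and 0 and 6, 0 and 1. MIR34AHG (−4.0 ± 1.36, adjusted p = 0.0173) had 0, 0 and 0 and 2, 2 and 4 counts, and DSC3 (−3.98 ± 1.58, adjusted p = 0.0442) had 0, 0 and 0 and 2, 0 and 2. In Kelly these genes were well counted, for example SLITRK1 at 15.6, 14.3 and 16.4 CPM in the controls and 17.7, 19.8 and 21.5 in the libraries labelled shAhR-1, and PHLDB2 at 9.25, 9.42 and 8.8 and 2.9, 3.27 and 3.0. The calls of ADORA1, ERC2, MEF2C, MIR34AHG and DSC3 were each lost when at least 1 single library was left out.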

How the results depend on the processing

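No called value changed sign under any alternative run. AHR, which was not called, had a log2 value of −0.10 that changed sign under some (0.07 with the replicate block, −0.61 to 0.35 with single libraries left out), and so did CYP1A1, also not called. Calls in Kelly ranged from 4356 to 4689 higher and 4613 to 4946 lower, those between the hairpins from 6071 to 6186 and 5891 to 6213, and those between lines from 2899 to 3363 and 2765 to 2918. The hairpin and line comparisons were rerun with RLE scaling, the replicate block and single libraries left out only. Of the named genes' alternative values, 2778 kept their side of the threshold and 13 lost the call (10 of them in HLA-C, and 1 each for NOP2, STARD4 and RPS19, each with a library left out). Of the list counts, 936 stayed within 1.5 times and 14 did not, and the cause was not tested. At a mean CPM of at least 1, the higher calls were 1 in place of 3 for the retinoic acid list, 5 in place of 3 for the respiratory chain and 1 in place of 3 for the fibroblast markers. Interferon genes called higher were 1 in place of 2 with no filter, with the replicate block and with the 2 groups alone. Leaving out single libraries gave 3 to 5 catecholamine genes higher, 1 to 3 interferon genes higher, 0 to 1 mitochondrial mRNAs lower (1 without control replicate 2), 0 to 1 ribosomal protein genes higher and 3 to 5 Wnt genes lower. Without mitochondrial genes, their own list had no value.

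Same-numbered libraries did not deviate together (correlations of −0.0191 to 0.0166), so no pairing by number was detected. With 3 libraries per group, this does not show that there was none. A fit with the replicate block gave 4619 genes higher and 4876 lower. Depth limits genes with few counts, among them AHR, CYP1A1 and AHRR, where 1 library can move a ratio.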
